A study of Mus musculus with 20 samples.

Results

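Expression of 7 mouse genes of arginine and tryptophan metabolism was described in cells sorted from MC38-OVA tumours: Slc7a2, Arg1, Nos2, Ass1, Odc1, Acod1 and Ido1. The genes were taken by name, and all 7 were found among the 55260 genes to which the transcript counts were summed. MC38-OVA is a colon carcinoma line that carries the model antigen ovalbumin, here grown in C57BL/6 mice. CD8 T cells and 3 myeloid fractions, CD11c+CD11b-, CD11c+CD11b+ and CD11c-CD11b+, were sorted on day 17 from 5 groups of tumours. Of these, 4 groups received 8 Gy of local radiotherapy (RT) on day 12. They were RT with both antibodies, RT with anti-PD-1 (250 µg per dose), RT with anti-SIRPa (400 µg per dose) and RT alone. The fifth group was untreated, and all groups carried the same tumour line. PD-1 is an inhibitory receptor of T cells, and SIRPa is the inhibitory receptor of myeloid cells that binds CD47. Leukocytes of 10 tumours, 1 per mouse, were pooled before sorting, so each of the 20 combinations of population and treatment is 1 library without a replicate. The spread given below is therefore the spread between the treatment pools of a population, treatment effects included, and the p-values measure no more than the spread between these pools.

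Arginine enters macrophages through cationic amino acid carriers such as the product of Slc7a2. Arginase (Arg1) splits it into urea and ornithine, whereas the inducible nitric oxide synthase (Nos2) turns it into nitric oxide and citrulline. Argininosuccinate synthase (Ass1) begins the way back from citrulline to arginine, and ornithine decarboxylase (Odc1) makes putrescine, the first polyamine, from ornithine. Acod1 makes itaconate, an anti-inflammatory metabolite, from a citric acid cycle intermediate, and Ido1 opens the tryptophan ring towards kynurenine. In tumours, myeloid cells with high arginase or IDO activity are known for depleting the amino acids that T cells need.

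The carrier gene Slc7a2 makes 2 protein forms that differ by an alternative exon, and the counts are split between transcripts with either exon, so both are shown. They are alternative forms of exon 7 of 12, on the plus strand of chromosome 8 in GRCm38. The form of 140 bases (chr8:40908056-40908195) is in transcripts Slc7a2-202 and Slc7a2-203, and the form of 137 bases (chr8:40908398-40908534) is in Slc7a2-201 and Slc7a2-204. Capitals mark the bases at which the 2 forms differ in an alignment of 141 columns, of which 86, or 61.0%, are identical.
Slc7a2-202 and Slc7a2-203: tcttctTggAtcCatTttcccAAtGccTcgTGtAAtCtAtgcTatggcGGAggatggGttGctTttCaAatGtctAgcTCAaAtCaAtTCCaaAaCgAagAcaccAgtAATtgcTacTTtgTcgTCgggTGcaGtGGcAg
Slc7a2-201 and Slc7a2-204: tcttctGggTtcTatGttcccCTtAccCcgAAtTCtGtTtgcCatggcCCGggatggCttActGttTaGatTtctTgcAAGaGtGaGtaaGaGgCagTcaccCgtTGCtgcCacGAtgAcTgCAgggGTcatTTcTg

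The libraries held 21522743 to 35696925 counts each. Levels are given as CPM, the share of a library's counts scaled by the trimmed mean of M-values (TMM). The library labelled untreated CD8 T went against its label. The summed level of 8 CD8 T cell markers was 201 CPM there, against 2806 to 4413 CPM in the 4 irradiated CD8 T libraries, and that of 8 macrophage markers was 18121 CPM, against 1106 to 2486 CPM. The untreated CD11c+CD11b- library stood apart as well. It had 6621 CPM of 5 fibroblast markers, against 435 to 1539 CPM in the irradiated libraries of that population. It also had 749 CPM of 6 markers of type 1 conventional dendritic cells, against 1634 to 3320 CPM. The high fibroblast sum was not particular to it. Untreated libraries had 4637 against 736 to 1652 CPM in CD11c+CD11b+, 6045 against 1213 to 2718 CPM in CD11c-CD11b+ and 2146 against 416 to 933 CPM in CD8 T cells. Macrophage marker sums were 460 to 1187 CPM in CD11c+CD11b- cells, 7123 to 13217 CPM in CD11c+CD11b+ cells and 3985 to 7736 CPM in CD11c-CD11b+ cells. The sum of 5 natural killer (NK) cell markers was 795 to 1076 CPM in CD11c+CD11b- cells and at most 103 CPM in any other library. CD8 T cell markers summed to 240 to 433 CPM in CD11c+CD11b- cells. This fraction is still counted as myeloid below, and the part of NK and T cells in its values was not tested. The summed level of 5 epithelial tumour markers was at most 6.06 CPM in any library, with up to 4 of the 5 at 0. In bulk libraries, fewer cells of a type and less RNA per cell cannot be told apart.

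**Figure D1:**
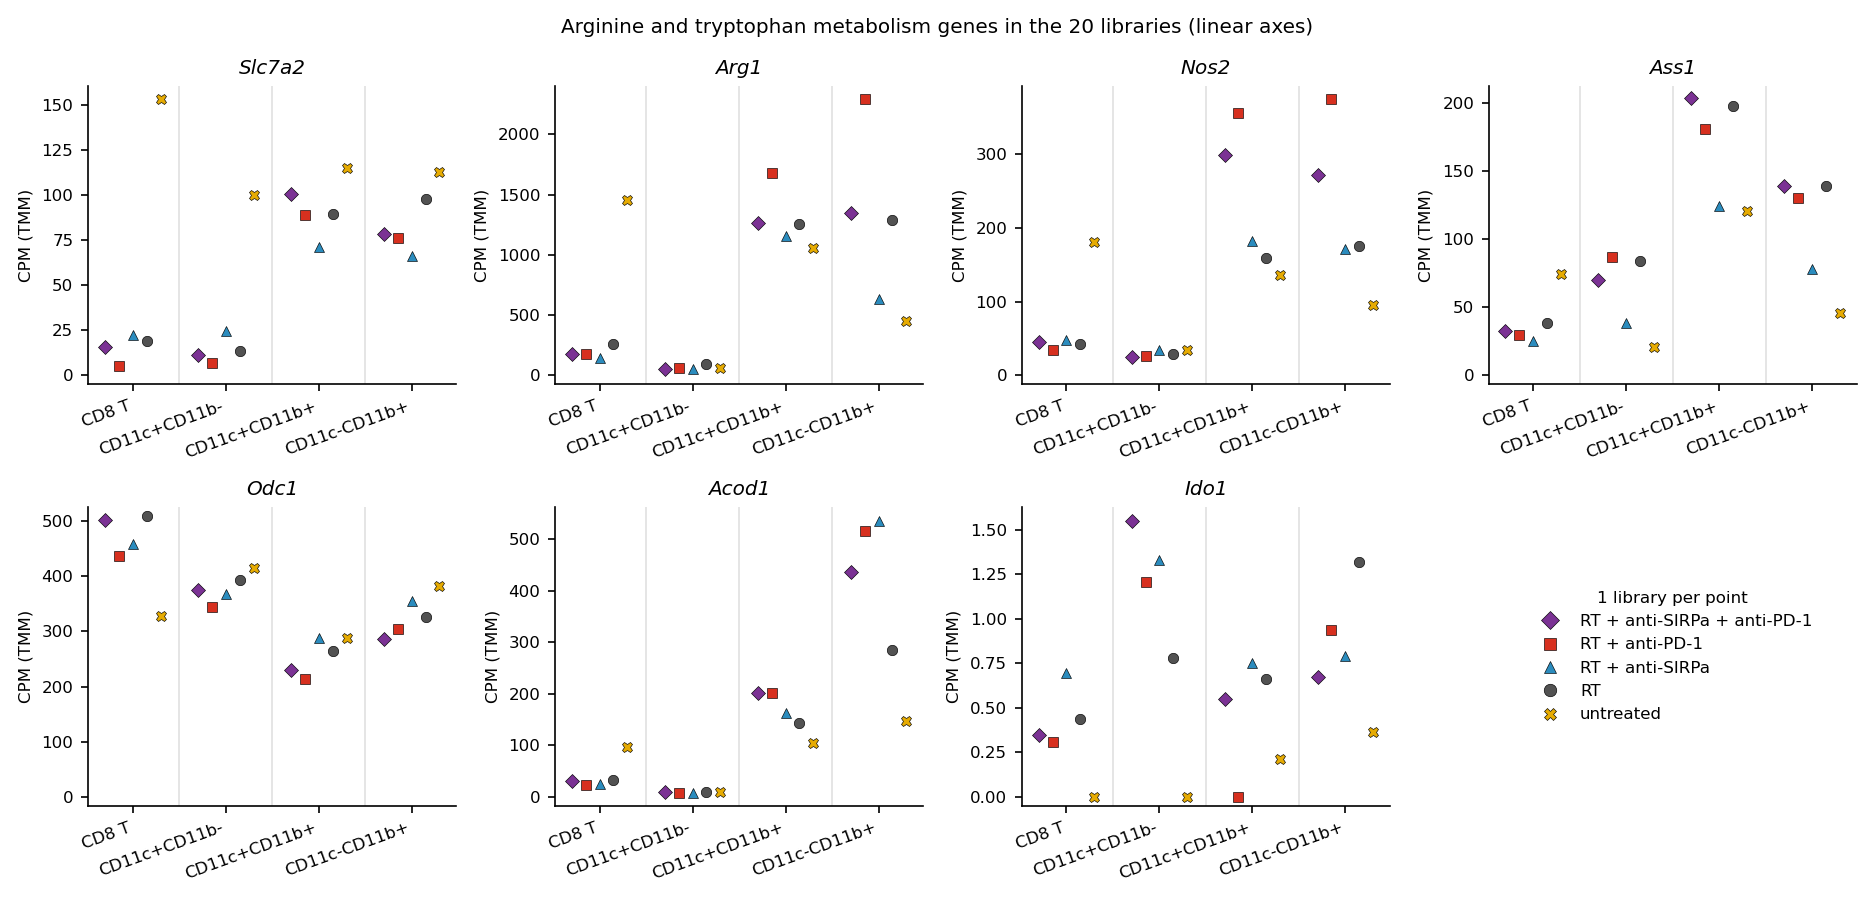
CPM of the 7 genes in all 20 libraries on linear axes, 1 point per library, grouped by population and coloured by treatment. Arg1, Nos2, Slc7a2 and Acod1 sit lower in CD11c+CD11b- cells than in the 2 CD11b+ populations, with untreated Slc7a2 in CD11c+CD11b- cells as the exception, and Ido1 stays below 1.6 CPM throughout.

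Arg1 and Odc1 were the most abundant of the group per transcript length. In TPM, which divides counts by transcript length before scaling, Arg1 averaged 550.0 ± 649.8 in CD8 T, 86.1 ± 20.98 in CD11c+CD11b-, 1547 ± 397 in CD11c+CD11b+ and 1560 ± 881 in CD11c-CD11b+ libraries (SD, n = 5 pools each). Odc1 averaged 465 ± 95.7, 394 ± 23.4, 239.6 ± 25.7 and 339.5 ± 43.6 TPM in the same order of populations. Odc1 thus stood above Arg1 in CD11c+CD11b- cells, and Arg1 above Odc1 in both CD11b+ populations. Acod1 averaged 279 ± 113 TPM in CD11c-CD11b+ cells, the population in which its mean was highest. Nos2 averaged 14.3 ± 1.23 TPM in CD11c+CD11b- cells, 98.1 ± 47.8 TPM in CD11c+CD11b+ cells and 100.3 ± 45.7 TPM in CD11c-CD11b+ cells. Ass1 averaged 72.7 ± 37.6, 174 ± 46.9 and 123 ± 49.4 TPM in these 3 populations. Slc7a2 had means of 12.6 to 37.8 TPM and Ido1 of 0.443 to 1.21 TPM over the 4 populations.

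The first question was how the sorted populations differ in these genes. Relative to CD11c+CD11b+ cells, CD11c+CD11b- cells were lower in Slc7a2, Arg1, Nos2, Ass1 and Acod1 and higher in Odc1. Of the 7 genes, 6 passed edgeR's quasi-likelihood test (adjusted p at most 0.05, Benjamini-Hochberg over all genes tested), against 41.6% of all genes tested in that comparison, and 5 of the 6 were lower. The median log2 fold change was -2.29 over the 7 genes and 0.00 over all genes. Against CD11c-CD11b+ cells, 5 genes passed and all 5 were lower in CD11c+CD11b- cells, with a background of 43.3%. Between CD11c+CD11b+ and CD11c-CD11b+ cells 3 genes passed, 1 higher and 2 lower, with a background of 21.4%. These fits hold the treatment pool as a term, since the populations of a pool came from the same tumours. Without that term 5, 3 and 0 genes passed in the 3 comparisons. In CD8 T against all myeloid libraries 4 genes passed, 1 higher and 3 lower, with a background of 33.7%. Without the library labelled untreated CD8 T, 6 genes passed, 1 higher and 5 lower. When an irradiated pool was left out, 1 gene passed, for each of the 4 pools. The shares of all genes passing in these changed fits are not given here, so their counts show only how the calls depend on the fit.

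**Figure D2:**
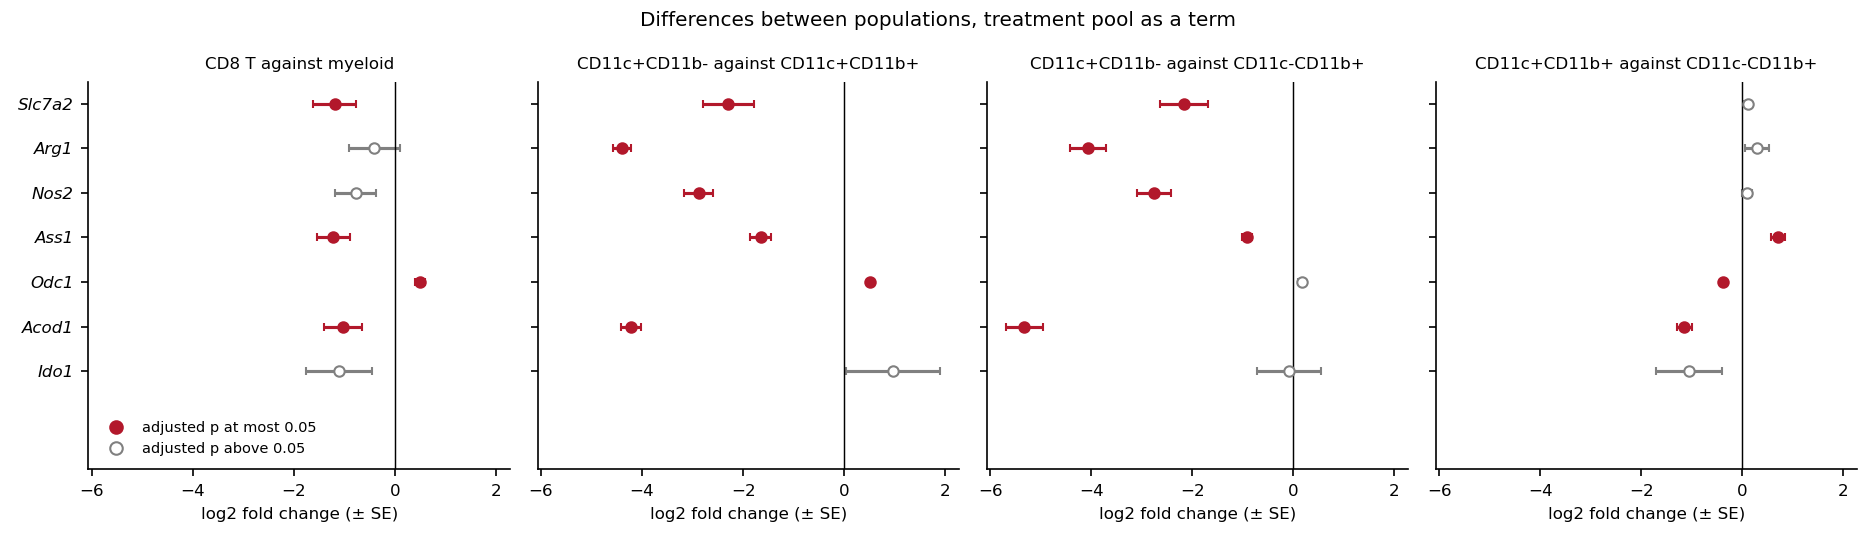
Log2 fold changes with their standard errors for the 7 genes in the 4 comparisons of populations, filled red where the adjusted p was at most 0.05. The left panel holds the library labelled untreated CD8 T, without which Arg1 and Nos2 also passed.

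Slc7a2 (ENSMUSG00000031596, chromosome 8, bases 40862396 to 40922308, plus strand) codes for a cationic amino acid carrier that takes up arginine, lysine and ornithine. It had 11.4, 7.01, 24.8, 13.6 and 100.1 CPM in CD11c+CD11b- cells of RT with both antibodies, RT with anti-PD-1, RT with anti-SIRPa, RT alone and untreated tumours. In the same order it had 100.5, 88.8, 71.5, 89.7 and 115 CPM in CD11c+CD11b+ cells, and 78.6, 76.2, 66.0, 98.0 and 113 CPM in CD11c-CD11b+ cells. The untreated CD11c+CD11b- library lay among the CD11b+ libraries, while the 4 irradiated CD11c+CD11b- libraries lay below all of them. The gene was lower in CD11c+CD11b- relative to CD11c+CD11b+ cells in 5 of 5 pools (log2 fold change -2.29 ± 0.50, edgeR adjusted p = 0.00907). The value was -2.76 without the untreated pool and -1.65, no longer called, without the pool term. Between CD11c+CD11b+ and CD11c-CD11b+ cells it differed by 0.11 ± 0.07 (log2), with an adjusted p of 0.357.

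The Slc7a2 level moved with fibroblast markers in the CD11c+CD11b- cells. The sum of the 5 markers was 449, 435, 1539, 886 and 6621 CPM in RT with both antibodies, RT with anti-PD-1, RT with anti-SIRPa, RT alone and untreated libraries. Both measures had the same order from lowest to highest over these 5 libraries. So did the sum of 8 neutrophil markers (22.4 to 139 CPM) and that of 4 mast cell and basophil markers (6.62 to 32.1 CPM), so the order is not particular to fibroblast markers. In CD11c+CD11b+ cells the fibroblast sum was 736 to 1652 CPM in the irradiated libraries and 4637 CPM in the untreated one, while Slc7a2 was 71.5 to 100.5 CPM in the irradiated libraries and 115 CPM in the untreated one. In CD11c-CD11b+ cells the untreated library was also highest in both, with 6045 and 113 CPM. Among the irradiated libraries the order differed. RT with anti-SIRPa had the highest fibroblast sum and the lowest Slc7a2 in CD11c+CD11b+ (1652 and 71.5 CPM) and CD11c-CD11b+ cells (2718 and 66.0 CPM). The part of these markers in the Slc7a2 differences was not tested. In the CD8 T cells Slc7a2 was 5.47 to 22.7 CPM in the irradiated libraries and 153 CPM in the library labelled untreated.

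**Figure D3:**
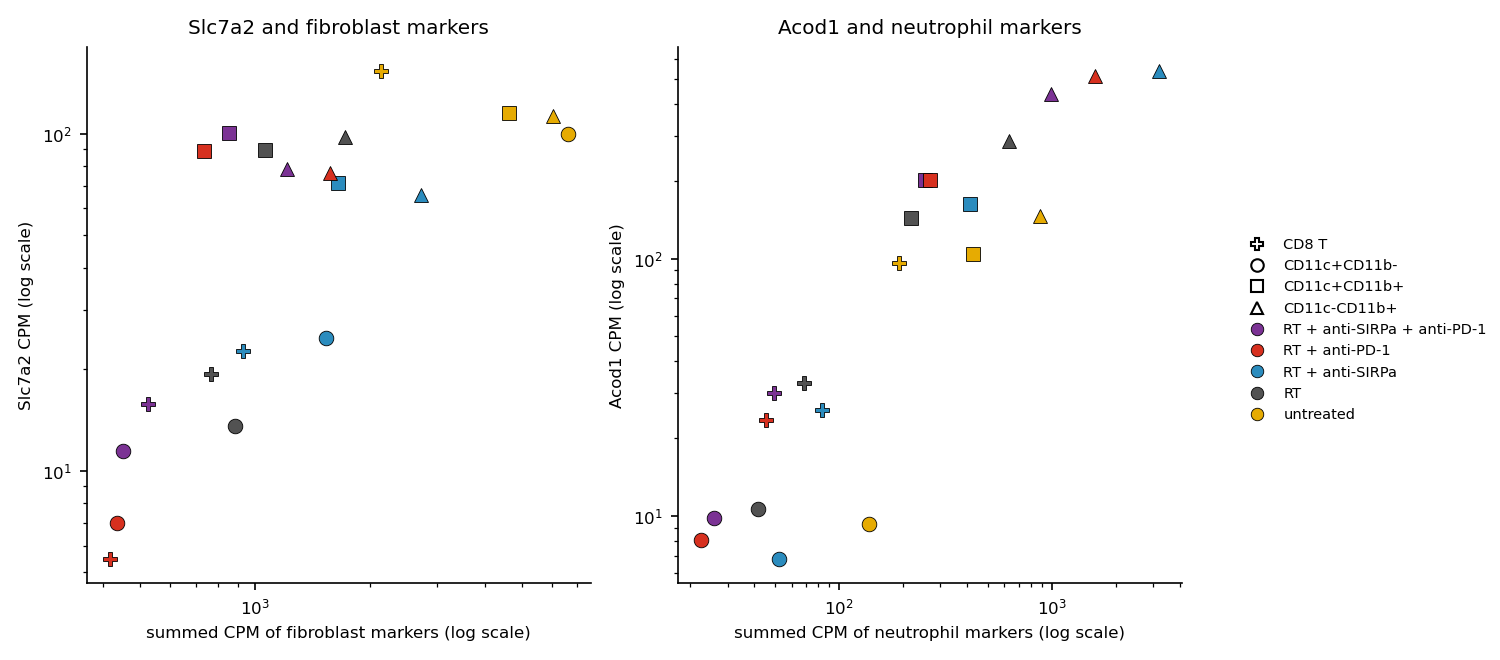
Slc7a2 against the summed CPM of 5 fibroblast markers (left) and Acod1 against that of 8 neutrophil markers (right) in all 20 libraries, both on log axes, with shape for population and colour for treatment. In CD11c+CD11b- cells Slc7a2 runs between 7.01 and 100.1 CPM as the fibroblast sum runs between 435 and 6621 CPM, and in CD11c-CD11b+ cells the untreated library has the lowest Acod1 although its neutrophil sum is not the lowest.

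Counts were split between both forms of Slc7a2 exon 7 in the CD11b+ populations. The share of the 137-base form was taken over the Slc7a2 transcripts named above, which hold either form, and not over the whole gene. By TPM it was 20.9 to 25.6% in the 5 CD11c+CD11b+ libraries and 22.4 to 29.5% in the 5 CD11c-CD11b+ libraries. By counts the same shares were higher, at 35.0 to 42.4% and 37.9 to 47.3%. In the CD11c+CD11b- cells the TPM share ran from 0.0 to 33.8% and in the CD8 T cells from 0.0 to 25.8%. The low-count libraries in these 2 populations held shares near 0 as well as shares above 20%, with the counts assigned to different transcripts from library to library. The shares are estimates by the authors' assembler for whole transcripts that also differ outside this exon. They are not counts of reads over it.

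The 5 other listed carriers of arginine went both ways. Slc7a7, which exports cationic amino acids, averaged 7.76 ± 2.04 CPM in CD11c+CD11b- cells and 42.0 ± 8.97 CPM in CD11c+CD11b+ cells (log2 fold change -2.49, edgeR adjusted p = 1.13e-05). Slc7a1, the carrier found in most dividing cells, averaged 154 ± 22.6 CPM against 80.1 ± 20.8 CPM, and was higher in CD11c+CD11b- cells (0.92, adjusted p = 0.000257). Of the 5 carriers, 2 were higher and 2 lower in that comparison, where 41.6% of all genes passed. Their median log2 fold change was 0.60.

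Arg1 (ENSMUSG00000019987, chromosome 10, bases 24915221 to 24927484, minus strand) separated CD11c+CD11b- cells from both CD11b+ populations. It had 51.9, 60.7, 51.0, 92.7 and 63.8 CPM in CD11c+CD11b- cells of RT with both antibodies, RT with anti-PD-1, RT with anti-SIRPa, RT alone and untreated tumours. CD11c+CD11b+ cells had 1267, 1681, 1161, 1253 and 1057 CPM in that order. CD11c-CD11b+ cells had 1350, 2290, 634, 1294 and 451 CPM. Every CD11c+CD11b- library lay below every library of the other myeloid populations. The gene was lower in CD11c+CD11b- relative to CD11c+CD11b+ cells by a log2 fold change of -4.40 ± 0.18 (edgeR adjusted p = 7.55e-06) and than in CD11c-CD11b+ cells by -4.06 ± 0.36 (adjusted p = 0.000188). Both CD11b+ populations overlapped, and their difference of 0.29 ± 0.24 (log2) did not pass (adjusted p = 0.458).

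Arg1 was found in the CD8 T cells too. It had 178, 179, 145 and 259 CPM in RT with both antibodies, RT with anti-PD-1, RT with anti-SIRPa and RT alone, and 1459 CPM in the library labelled untreated. Macrophage markers summed to 1716, 1106, 2302 and 2486 CPM in these irradiated libraries and to 18121 CPM in the untreated one. The share of this Arg1 signal that belongs to myeloid cells in the sort was not tested. Without the library labelled untreated, Arg1 was lower in CD8 T than in myeloid libraries (log2 fold change -1.36 against -0.41 with it, where it did not pass).

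Nos2 (ENSMUSG00000020826, chromosome 11, bases 78920787 to 78960254, plus strand) is the nitric oxide synthase that inflammatory stimuli induce in mouse macrophages. It had 25.3, 26.7, 34.8, 28.7 and 34.4 CPM in CD11c+CD11b- cells, with treatments in the order used for Arg1. It had 299.5, 356, 183, 159.9 and 136 CPM in CD11c+CD11b+ cells, and 272, 375, 171, 176 and 96.2 CPM in CD11c-CD11b+ cells. As with Arg1, no CD11c+CD11b- library reached the lowest library of the other myeloid populations. The log2 fold change was -2.88 ± 0.28 against CD11c+CD11b+ cells (edgeR adjusted p = 0.000254) and -2.75 ± 0.33 against CD11c-CD11b+ cells (adjusted p = 0.000724). Both CD11b+ populations had nearly equal means, 227 ± 95.8 CPM in CD11c+CD11b+ and 218 ± 108 CPM in CD11c-CD11b+ cells, and their difference did not pass (adjusted p = 0.566).

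Some neighbouring enzymes also differed. Gch1, the first enzyme in making the cofactor of nitric oxide synthase, averaged 14.8 ± 3.49 CPM in CD11c+CD11b- cells and 38.0 ± 5.88 CPM in CD11c+CD11b+ cells (log2 fold change -1.43, edgeR adjusted p = 7.91e-05). Of the 12 other genes of nitric oxide synthesis, 1 was higher and 1 lower in that comparison. This is a smaller share than the 41.6% of all genes that passed there, so the list as a whole did not stand out. Arg2, the mitochondrial arginase, averaged 1.48 ± 0.41 CPM in CD11c+CD11b-, 11.5 ± 4.47 CPM in CD11c+CD11b+ and 38.4 ± 21.2 CPM in CD11c-CD11b+ cells, and was lower in CD11c+CD11b+ relative to CD11c-CD11b+ cells (-1.62, adjusted p = 0.00175). Gatm, which uses arginine to make the precursor of creatine, averaged 41.0 ± 11.9 CPM in CD11c+CD11b- and 192 ± 33.6 CPM in CD11c+CD11b+ cells (-2.31, adjusted p = 4.27e-05).

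Ass1 (ENSMUSG00000076441, chromosome 2, bases 31470207 to 31520672, plus strand) was highest in CD11c+CD11b+ cells. It had 203, 181, 124, 197 and 121 CPM there in RT with both antibodies, RT with anti-PD-1, RT with anti-SIRPa, RT alone and untreated libraries. It had 70.3, 87.1, 38.3, 83.8 and 20.6 CPM in CD11c+CD11b- cells, and 139, 130.3, 77.95, 139 and 46.0 CPM in CD11c-CD11b+ cells. In each of the 3 populations the untreated library was the lowest and RT with anti-SIRPa the next lowest. Ass1 was lower in CD11c+CD11b- relative to CD11c+CD11b+ cells (log2 fold change -1.66 ± 0.21, edgeR adjusted p = 0.000895) and than in CD11c-CD11b+ cells (-0.92 ± 0.10, adjusted p = 0.000478), the second call being lost without the pool term (-0.86). It was higher in CD11c+CD11b+ relative to CD11c-CD11b+ cells in 5 of 5 pools (0.70 ± 0.14, adjusted p = 0.0079), a call that was lost without the pool term, as was that of Odc1 and Acod1 in this comparison. Asl, which completes the return to arginine, averaged 29.1 ± 6.07 CPM in CD8 T libraries and 35.4 ± 3.28 CPM in myeloid libraries. It was lower in the CD8 T libraries (log2 fold change -0.29, edgeR adjusted p = 0.0153). These hold the library labelled untreated CD8 T, and the value without it is not given here.

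Odc1 (ENSMUSG00000011179, chromosome 12, bases 17544794 to 17551505, plus strand) had its highest mean in CD8 T cells and its lowest in CD11c+CD11b+ cells. It had 502, 437, 458, 509.6 and 327 CPM in CD8 T cells, with treatments in the order given for Ass1, and 374, 345, 368, 393 and 414 CPM in CD11c+CD11b- cells. In CD11c+CD11b+ cells it had 230.4, 214, 289, 264 and 289 CPM, and in CD11c-CD11b+ cells 286, 305, 356, 326 and 382 CPM. CD11c+CD11b- cells did not overlap with CD11c+CD11b+ cells and were higher (log2 fold change 0.52 ± 0.07, edgeR adjusted p = 0.00125), whereas their difference from CD11c-CD11b+ cells did not pass (0.17 ± 0.08, adjusted p = 0.104). CD11c+CD11b+ cells were lower than CD11c-CD11b+ cells in 5 of 5 pools (-0.38 ± 0.06, adjusted p = 0.0043). CD8 T cells were higher than myeloid cells (0.50 ± 0.10, adjusted p = 0.00121), and the value was 0.63 without the library labelled untreated.

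Other polyamine genes were called in both directions. Sms, which makes spermine, averaged 48.5 ± 4.15 CPM in CD11c+CD11b- cells and 18.6 ± 1.11 CPM in CD11c+CD11b+ cells (log2 fold change 1.33, edgeR adjusted p = 2.52e-05). Of the 11 other genes of ornithine, proline and polyamine synthesis, 4 were higher and 1 lower. Among the 8 genes of polyamine breakdown, transport and hypusine, 1 was higher and 4 were lower. Of all genes tested in that comparison 41.6% passed, 4437 higher and 4268 lower, so calls in both directions are not particular to these lists. Smox, which oxidises spermine, averaged 26.7 ± 1.51 CPM against 140 ± 16.7 CPM (-2.44, adjusted p = 6.04e-06), and Sat1, the acetyltransferase that starts polyamine breakdown, averaged 120 ± 8.81 CPM against 336 ± 44.0 CPM (-1.53, adjusted p = 1.22e-05).

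Acod1 (ENSMUSG00000022126, chromosome 14, bases 103046977 to 103056573, plus strand) had the largest separation of the 7 genes between CD11c+CD11b- and CD11c-CD11b+ cells. It had 9.81, 8.04, 6.79, 10.6 and 9.33 CPM in CD11c+CD11b- cells of RT with both antibodies, RT with anti-PD-1, RT with anti-SIRPa, RT alone and untreated tumours. It had 202, 202, 163, 144 and 104 CPM in CD11c+CD11b+ cells, and 435, 515, 535, 286 and 147 CPM in CD11c-CD11b+ cells. The CD11c+CD11b- libraries lay far below all others of the myeloid fractions. The log2 fold change was -4.21 ± 0.20 against CD11c+CD11b+ cells (edgeR adjusted p = 1.15e-05) and -5.32 ± 0.37 against CD11c-CD11b+ cells (adjusted p = 6.4e-05). Acod1 was lower in CD11c+CD11b+ relative to CD11c-CD11b+ cells in 5 of 5 pools (-1.15 ± 0.15, adjusted p = 0.00167).

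Neutrophil markers were also highest in CD11c-CD11b+ cells. The 8 markers summed to 22.4 to 139 CPM in CD11c+CD11b-, 219 to 427 CPM in CD11c+CD11b+ and 629 to 3205 CPM in CD11c-CD11b+ cells, where at most 1 marker was at 0 in a library. Within CD11c-CD11b+ cells the sum was 989, 1596, 3205, 629 and 887 CPM, with treatments in the order given for Acod1. RT with anti-SIRPa had the highest value of both measures there. In CD11c+CD11b+ cells the sum was highest, at 427 CPM, in the untreated library, where Acod1 was lowest, at 104 CPM. The part of the neutrophil markers in the Acod1 differences was not tested.

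Ido1 (ENSMUSG00000031551, chromosome 8, bases 24584136 to 24597009, minus strand) was close to the detection limit in all populations. Its counts ran from 0 to 41 per library. Over the 4 irradiated libraries they summed to 45 in CD8 T cells and 126 in CD11c+CD11b- cells, with 0 counts in the untreated library of each. They summed to 61 in CD11c+CD11b+ cells, against 6 in the untreated library, and to 97 in CD11c-CD11b+ cells, against 11. As CPM without TMM scaling, the 4 pooled libraries against the 1 untreated library gave 0.481 against 0.210 and 0.911 against 0.369. A count of 0 also occurred after irradiation, in CD11c+CD11b+ cells of RT with anti-PD-1. Pooled, the irradiated CD11c+CD11b- libraries had 1.27 CPM against a floor of 0.1004 CPM (3 counts) in the untreated library, and were thus at least 12.6-fold higher. The irradiated CD8 T libraries were at least 4.37-fold higher than the floor of 0.107 CPM of the library labelled untreated. These bounds cover counting error only. Ido1 did not pass in any of the 4 comparisons of populations (edgeR adjusted p between 0.203 and 0.935).

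Some enzymes further along the tryptophan route were higher in both CD11c+ populations than in CD11c-CD11b+ cells. Kmo, which hydroxylates kynurenine, averaged 70.2 ± 48.1 CPM in CD11c+CD11b-, 42.5 ± 13.2 CPM in CD11c+CD11b+ and 5.11 ± 0.63 CPM in CD11c-CD11b+ cells. Kynu, which cleaves hydroxykynurenine, averaged 13.9 ± 8.41, 13.2 ± 4.001 and 2.86 ± 0.77 CPM in the same populations. Between CD11c+CD11b+ and CD11c-CD11b+ cells 21.4% of all genes tested passed, 2011 higher and 2440 lower. Of the 11 other genes of tryptophan breakdown, 8 were tested there, and 4 were higher and none lower. They included Kmo (log2 fold change 2.995, edgeR adjusted p = 2.1e-05), Kynu (2.18, adjusted p = 9.29e-05) and Haao, the next enzyme towards quinolinate (1.34, adjusted p = 0.000201). Markers of dendritic cells were higher in the same comparison, 6 of 6 for cDC2 (median log2 fold change 2.22), 5 of 6 for mature dendritic cells (3.16) and 4 of 6 for cDC1 (0.77), and their part was not tested. Between CD11c+CD11b- and CD11c-CD11b+ cells 43.3% of all genes tested passed, 4540 higher and 4679 lower. There 6 of 6 cDC1 markers were higher (median 2.87), and of 9 other genes of tryptophan breakdown tested, 6 were higher and none lower. The secreted amino acid oxidase Il4i1, which acts on tryptophan and phenylalanine, was among them (3.95, adjusted p = 0.000969).

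**Figure D4:**
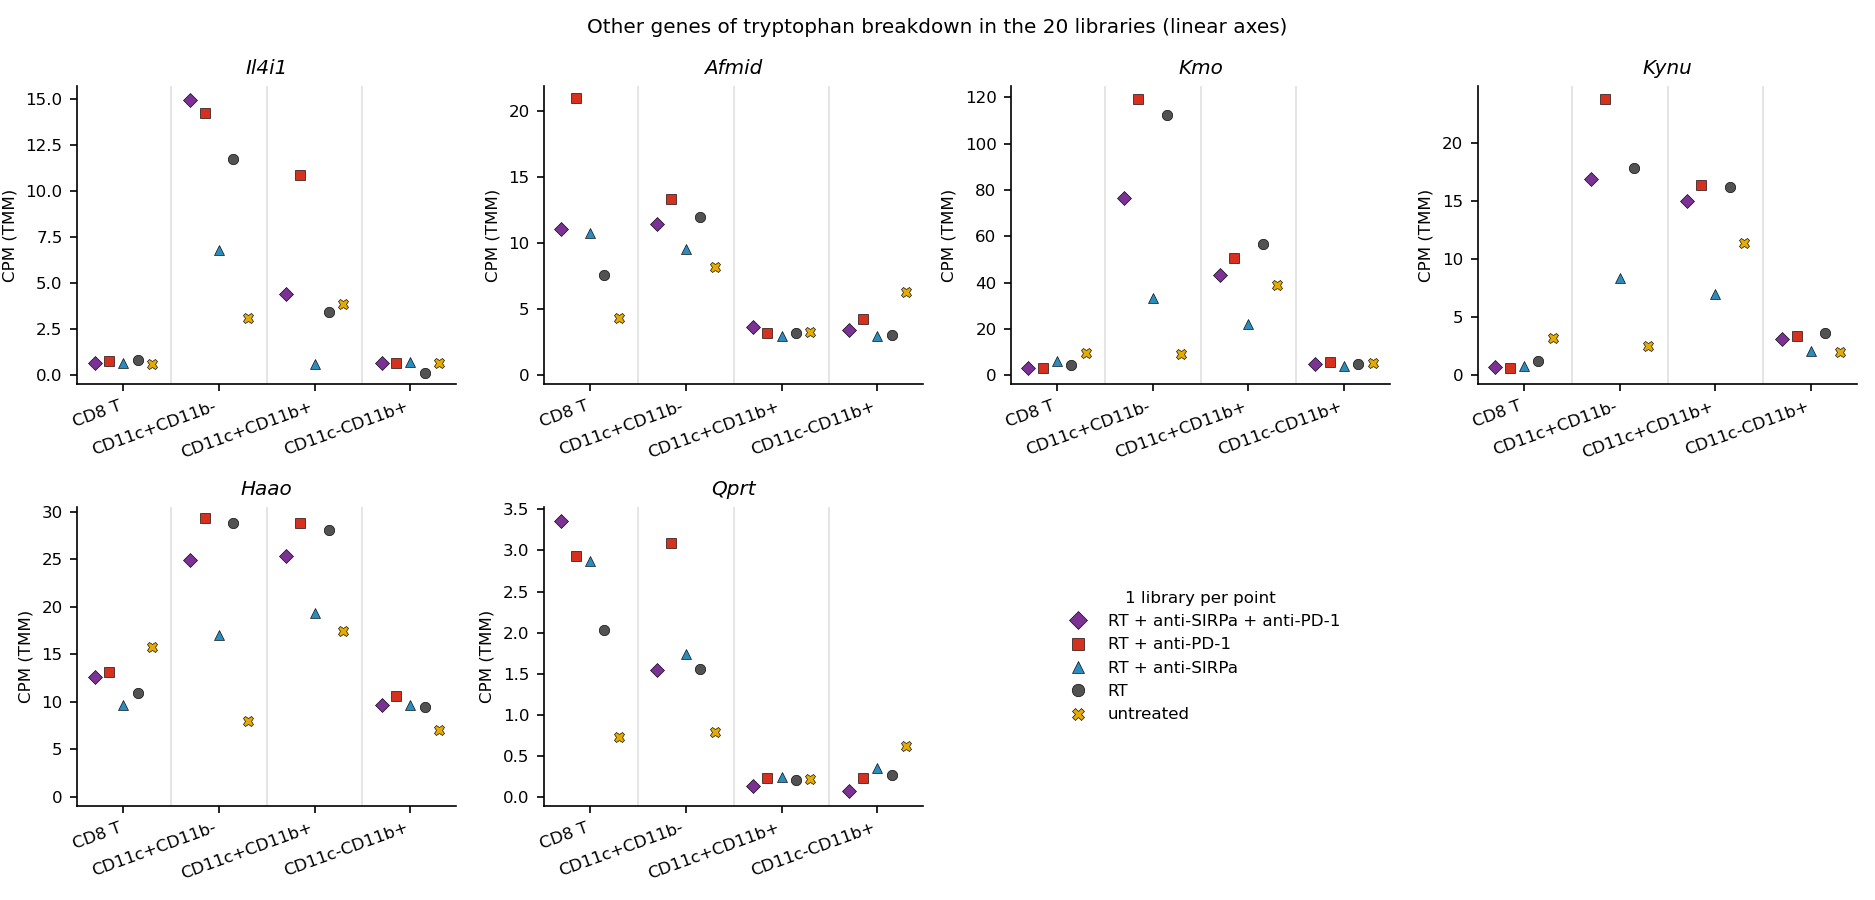
CPM of 6 further genes of tryptophan breakdown in all 20 libraries on linear axes, 1 point per library. Kmo runs between 33.2 and 119 CPM in the irradiated CD11c+CD11b- libraries against 9.43 CPM in the untreated one, and between 4.10 and 5.80 CPM in CD11c-CD11b+ cells. Il4i1 and Qprt lie below the level set for naming in part of the comparisons and were added after their values were seen.

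The next question was how irradiated tumours differed from untreated ones. Each population had 4 irradiated libraries against 1 untreated library, so the test rests on the spread among the irradiated ones, antibody effects included. Among CD11c-CD11b+ cells Arg1 had 634 to 2290 CPM in the 4 irradiated libraries against 451 CPM in the untreated one, and Nos2 had 171 to 375 CPM against 96.2 CPM. Acod1 had 286 to 535 CPM against 147 CPM and Ass1 77.95 to 139 CPM against 46.0 CPM. No gene of the group passed edgeR's quasi-likelihood test there, where 0.0047% of all genes did. At an unadjusted p under 0.05 there were 4 of the 7, against 4053 of all 21292 genes tested, and DESeq2 called the same 4, Acod1, Arg1, Ass1 and Nos2, among 1336 genes in all. Their log2 fold changes in edgeR were 1.598 ± 0.36, 1.64 ± 0.65, 1.41 ± 0.37 and 1.38 ± 0.48 (edgeR adjusted p 0.173 to 0.2504). Calls appeared in edgeR when the pool of RT with anti-SIRPa was left out. The share of all genes called in that fit is not given here, so these calls are not read as a result about the genes.

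In the CD11c+CD11b+ cells no gene of the group passed, with a background of 0.343%. Acod1 was nearest, with 144 to 202 CPM in irradiated libraries and 104 CPM in the untreated one (log2 fold change 0.80 ± 0.23, edgeR adjusted p = 0.178). It was the 1 gene of the 7 at an unadjusted p under 0.05, against 3316 of all 20995 genes, and the 1 that DESeq2 called, among 1247 in all. In the CD11c+CD11b- cells no gene passed either, with a background of 0.019%. There 3 of the 7 had an unadjusted p under 0.05, against 4745 of all 21046 genes, and DESeq2 called these 3 among 2746 in all. Slc7a2 had 7.01 to 24.8 CPM in irradiated libraries and 100.1 CPM in the untreated one (-2.80 ± 0.51, edgeR adjusted p = 0.0858). Ass1 had 38.3 to 87.1 CPM and 20.6 CPM (1.78 ± 0.48, adjusted p = 0.106), and Ido1 is given above as a bound. Beside these stand the marker sums of that population, which differ between its untreated library and the others. The sum of mature dendritic cell markers was 950 to 2123 CPM in the irradiated libraries and 545 CPM in the untreated one.

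In the CD8 T cells all 7 genes passed, against 24.4% of all genes tested, with 2 higher and 5 lower in irradiated libraries. All 7 calls rest on the library labelled untreated, whose CD8 and macrophage markers go against its label. They are thus a comparison with that library and not with untreated CD8 T cells. Slc7a2 had the largest of the 5 decreases (log2 fold change -3.27 ± 0.52, edgeR adjusted p = 0.00539), followed by Arg1 (-2.93 ± 0.25, adjusted p = 0.000864).

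Whether the irradiation effect differed between populations was tested with an interaction term. No gene of the group passed for CD11c-CD11b+ minus CD11c+CD11b+ cells, where 0.335% of all genes did. At an unadjusted p under 0.05 there were 4 of the 7, against 1800 of all 22061 genes, and DESeq2 called 1, among 337 in all. None passed for CD11c+CD11b- minus CD11c+CD11b+ cells, where 0.982% of all genes did. At an unadjusted p under 0.05 there were 2 of the 7, against 3474 of all 22301 genes, and DESeq2 called 1, among 1082 in all. That gene was Ass1 in both, with edgeR values of 0.82 ± 0.15 (log2, adjusted p = 0.106) and 1.25 ± 0.24 (adjusted p = 0.0729). Of 101 other pathway genes tested in the second comparison, 5 passed and all 5 were positive. They included Kmo (3.03 ± 0.24, adjusted p = 0.00665), Kynu (2.52 ± 0.24, adjusted p = 0.0104) and Haao (1.16 ± 0.18, adjusted p = 0.0415). Kynu had 16.9, 23.8, 8.38 and 17.9 CPM in CD11c+CD11b- cells of RT with both antibodies, RT with anti-PD-1, RT with anti-SIRPa and RT alone, against 2.52 CPM in the untreated library. Its levels in CD11c+CD11b+ cells were 15.0, 16.4, 7.03, 16.2 and 11.4 CPM. The dendritic cell markers named above also differ between these libraries, and their part was not tested.

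Anti-PD-1 was examined within the irradiated pools, with 2 libraries that received it and 2 that did not, and the other antibody as a term. In both CD11b+ populations the libraries with and without it did not overlap for Nos2, Arg1 and Odc1, with Odc1 lower with the antibody. Such a gap arises easily between 2 and 2 libraries. The share of all genes with such a gap was not counted, so the gap is not a result about these genes. Nos2 is given first. In CD11c+CD11b+ cells it had 299.5 and 356 CPM with anti-PD-1, against 183 and 159.9 CPM without it. The CD11c-CD11b+ cells had 272 and 375 CPM with anti-PD-1, against 171 and 176 CPM without it. The CD11c+CD11b- cells had 25.3 and 26.7 CPM with anti-PD-1, against 34.8 and 28.7 CPM without it. The libraries with the antibody were the higher ones in both CD11b+ populations and the lower ones in CD11c+CD11b- cells.

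In CD11c+CD11b+ cells 2 genes of the group passed, both higher with anti-PD-1, against 6.66% of all genes tested. Nos2 rose by a log2 fold change of 0.96 ± 0.13 (edgeR adjusted p = 0.0115). Acod1 rose by 0.42 ± 0.10 (adjusted p = 0.0476), with 202 and 202 CPM against 163 and 144 CPM. The median over the 7 genes was 0.30, and over all genes 0.00. The test had 1 residual degree of freedom, and no gene of the group passed when any of the 4 irradiated libraries was left out, in a fit over all 20 libraries in which the lone sample is assumed to vary like the other groups. With all 20 libraries kept, Nos2 passed and Acod1 did not, and neither passed with no filter on low counts or without the anti-SIRPa term. Among CD11c-CD11b+ cells no gene of the group and 0.0% of all genes passed in edgeR. At an unadjusted p under 0.05 there were 2 of the 7, against 2944 of all 19468 genes, and DESeq2 called 2, among 533 in all. They were Nos2 (0.88 ± 0.15, adjusted p = 0.138) and Arg1 (0.96 ± 0.19, adjusted p = 0.138). Arg1 had 1350 and 2290 CPM with anti-PD-1 and 634 and 1294 CPM without it.

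Macrophage marker sums in CD11c-CD11b+ cells were 7698 and 7736 CPM with anti-PD-1, against 3985 and 5313 CPM without it. Within CD11c+CD11b+ cells they were 12860 and 10510 CPM with it, against 13217 and 10932 CPM without it, so there the sums overlapped. Neutrophil sums were 255 and 267 CPM with it and 415 and 219 CPM without it in CD11c+CD11b+ cells. The part of the macrophage markers in the CD11c-CD11b+ values was not tested.

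**Figure D5:**
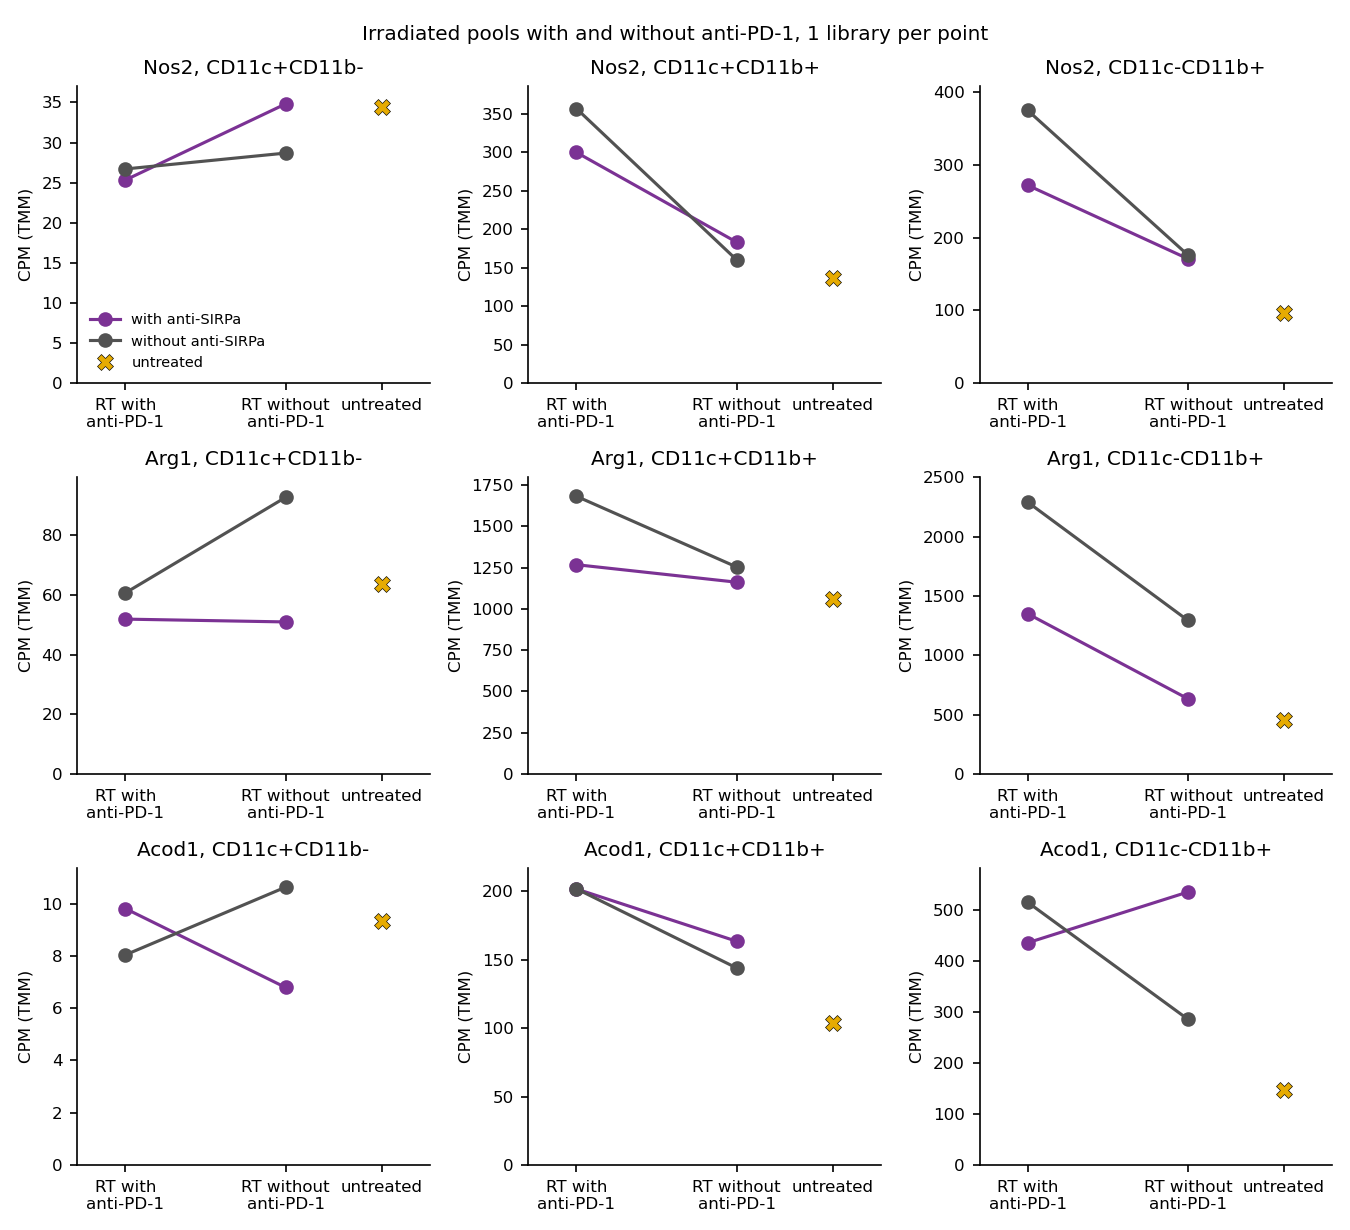
CPM of Nos2, Arg1 and Acod1 in the 3 myeloid populations of irradiated tumours with anti-PD-1 (left) and without it (right), joined between libraries that share the anti-SIRPa status, with the untreated library beside them. Nos2 is higher with anti-PD-1 on both lines in CD11c+CD11b+ and CD11c-CD11b+ cells and lower on both lines in CD11c+CD11b- cells.

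The anti-PD-1 effect on Nos2 differed between 2 populations in the filtered data, a call that was lost with no filter on low counts. For CD11c+CD11b- minus CD11c+CD11b+ cells the difference of the effects was -1.21 ± 0.11 (log2, edgeR adjusted p = 0.0174). It was the 1 gene of the group that passed there, against 0.191% of all genes tested. Slc7a2 had -1.29 ± 0.16 (adjusted p = 0.0659). No gene of the group passed for CD11c-CD11b+ minus CD11c+CD11b+ cells, where the background was 0.0246%. At an unadjusted p under 0.05 there was 1 of the 7, against 933 of all 20361 genes, and DESeq2 called 0, against 21 in all. The difference for Nos2 was -0.04 ± 0.15 there.

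In the CD11c+CD11b- cells Slc7a2 was the 1 gene of the group that passed with anti-PD-1, against 4.1% of all genes tested. It had 11.4 and 7.01 CPM with the antibody, against 24.8 and 13.6 CPM without it, and fell by a log2 fold change of -1.03 ± 0.15 (edgeR adjusted p = 0.0265). The fibroblast sum was 449 and 435 CPM with it, against 1539 and 886 CPM without it, and its part was not tested. In a fit over all 20 libraries, with no filter on low counts or without the anti-SIRPa term it did not pass. In the CD8 T cells no gene of the group passed, with a background of 6.97%. Slc7a2, with 15.8 and 5.47 CPM against 22.7 and 19.3 CPM, was the 1 gene of the 7 at an unadjusted p under 0.05 and the 1 that DESeq2 called (-1.12 ± 0.27, edgeR adjusted p = 0.0542). Of all 18784 genes tested there, 4399 were under that limit and DESeq2 called 854.

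Of 97 other pathway genes tested with anti-PD-1 in CD11c+CD11b+ cells, 3 were higher and 10 lower, with a median log2 fold change of 0.02. The share called was 13.4%, against 6.66% of all genes tested. Over all genes 368 were higher and 910 lower, so the excess of lower genes is not particular to these lists. Asns, which makes asparagine and is a target of the amino acid starvation response, averaged 17.2 ± 2.79 CPM with anti-PD-1 and 39.98 ± 15.3 CPM without it (log2 fold change -1.16, edgeR adjusted p = 0.00983). Srm, which makes spermidine, averaged 22.1 ± 5.34 CPM and 36.0 ± 4.43 CPM (-0.69, adjusted p = 0.0158), and Slc7a1 averaged 60.7 ± 10.6 CPM and 87.2 ± 12.8 CPM (-0.50, adjusted p = 0.0183). Of the genes that were higher, Irf1, a transcription factor induced by interferon gamma, averaged 419 ± 3.61 CPM and 326 ± 33.2 CPM (0.39, adjusted p = 0.047), and Socs1, a brake on that signal, 47.0 ± 4.18 CPM and 31.8 ± 3.35 CPM (0.59, adjusted p = 0.0268). The third was Il4i1, named after its values were seen since it lay under the level set for naming, with 4.45 and 10.9 CPM against 0.631 and 3.46 CPM (2.17, adjusted p = 0.0132). Among CD11c+CD11b- cells 3 of 96 other pathway genes were lower and none higher, among them Asns and Srm. In CD8 T cells 4 of 99 were higher and 5 lower. These shares, 3.1% and 9.1%, lie near the 4.1% and 6.97% of all genes tested in these 2 populations. In CD11c-CD11b+ cells none of 96 passed, with a background of 0.0%.

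No gene of the group passed with anti-SIRPa in the irradiated pools of any population. The background was 0.101% in CD8 T, 0.00523% in CD11c+CD11b-, 0.156% in CD11c+CD11b+ and 0.0% in CD11c-CD11b+ cells. At an unadjusted p under 0.05 there were 3, 3, 1 and 1 of the 7 in edgeR, against 1835 of 18784, 2358 of 19130, 2189 of 19191 and 848 of 19468 genes in all. DESeq2 called 0, 1, 0 and 1 of the 7, among 46, 276, 113 and 13 genes in all. Arg1 was among the genes under that limit in all 4 populations, each time with a lower mean in the libraries with anti-SIRPa. Arg1 in CD11c-CD11b+ cells had 1350 and 634 CPM with anti-SIRPa, against 2290 and 1294 CPM without it (log2 fold change -0.91 ± 0.19, edgeR adjusted p = 0.962). CD11c+CD11b- cells had 51.9 and 51.0 CPM, against 60.7 and 92.7 CPM (-0.52 ± 0.16, adjusted p = 0.251). Ass1 in CD11c+CD11b- cells, the gene that DESeq2 called there, had 70.3 and 38.3 CPM with anti-SIRPa, against 87.1 and 83.8 CPM without it (-0.69 ± 0.19, adjusted p = 0.217). The 4 populations of a pool share their tumours, so these directions are not independent of each other. No difference of the anti-SIRPa effect between populations passed for a gene of the group. The background was 0.0931% for CD11c+CD11b- minus CD11c+CD11b+ cells and 0.00491% for CD11c-CD11b+ minus CD11c+CD11b+ cells, with 2 and 1 of the 7 at an unadjusted p under 0.05, against 2312 of 20417 and 456 of 20361 genes in all. DESeq2 called 0 of the 7 in both, among 103 and 16 genes in all.

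Genes with the most similar levels were sought for 6 of the 7, Ido1 being too low, over the 15 myeloid libraries, among 10137 genes, by Pearson's correlation of log2(CPM + 1). These libraries share pools in sets of 3 and fall into 3 populations, so the correlations mostly rank how well a gene separates populations. Nearest to Arg1 were Pid1, Ms4a4a, Slc7a8, Furin and Prdx5 (r 0.992 to 0.994). Slc7a8 is a carrier of neutral amino acids. Nearest to Nos2 were Plin2, Rnf149, Sod2, Lrpap1 and Mocs1 (r 0.983 to 0.986), of which Plin2 coats lipid droplets and Sod2 is the mitochondrial superoxide dismutase. Nearest to Acod1 were Csf3r, Clec4d, Msrb1, Gda and Tgm2 (r 0.992 to 0.995), and Csf3r, the receptor for granulocyte colony-stimulating factor, is 1 of the 8 neutrophil markers. Not all of these markers ran with it. In CD11c+CD11b+ cells Csf3r had 100.3 CPM in the untreated library and 185 CPM in RT with anti-PD-1. The markers S100a8 (52.4 and 16.7 CPM) and S100a9 (106 and 30.3 CPM) went the other way. Nearest to Ass1 were Rasa4, Lsr, Pik3r6, Prkcd and Cd200r1, and nearest to Slc7a2 were Pld1, Slc35f5, Hgf, Tpst1 and Trps1. Nearest to Odc1 were Aspm, Trim59, Kif4, Miga1 and Hjurp (r 0.960 to 0.976), of which Aspm, Kif4 and Hjurp act in cell division. When 1 library was left out, 1 to 5 of the 5 genes stayed the same for Odc1, 2 to 5 for Arg1 and Nos2, and 3 to 5 for Ass1, Slc7a2 and Acod1.

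Outside Slc7a2 the transcript assignment was simple. Arg1-201 held 99.2 to 99.9% of Arg1 counts, Nos2-201 99.3 to 100% of Nos2 counts, Ass1-201 98.8 to 99.8% of Ass1 counts and Odc1-201 76.9 to 85.4% of Odc1 counts over the 20 libraries, and Acod1 had 1 transcript in the table.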

How the data were processed

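RNA of 20 libraries was sequenced, 1 per population and treatment pool. The authors deposited a table of whole-number estimated counts for 142699 transcripts, made with HISAT2 and StringTie on GRCm38, with FastQC 0.11.8 and edgeR 3.34.0 also named, per the submitters' processing notes. Versions of HISAT2 and StringTie: not given in the sources used here. Here the estimated counts were summed per gene through GENCODE M21, with 141469 transcripts matched and 1230 unmatched, at most 0.399% of a library's counts. CPM (TMM scaling) and TPM were computed from them. Differences were tested with edgeR 4.0.16 (R 4.3.3, limma 3.58.1), quasi-likelihood, on genes kept by filterByExpr (min.count 10, min.total.count 15), and p-values were adjusted by Benjamini-Hochberg over all genes at 0.05. DESeq2 1.42.0 was an alternative. Standard errors are approximate, taken as the size of the fitted log2 change divided by √F. Population comparisons hold the pool as a term, because the populations of a pool came from the same 10 tumours. Depth was 21522743 to 35696925 counts per library, and bounds cover counting error only. Among 190 pairs of libraries the lowest chi-square, scaled by its degrees of freedom, was 13.3, so none was counted as a repeat. Besides the 7 genes, up to 4 called genes per pathway list and comparison are named, at a mean of at least 10 CPM in either group, together with the 5 most similar genes. Not every gene this admits is printed. A second gene ID with the symbol Ddit3 was left out of the lists. Scripts were tested on simulated counts. The genes and lists were chosen with earlier results of these data known. Figures were drawn with Python 3.11.15, numpy 2.4.6, pandas 2.3.3 and matplotlib 3.10.9.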

Additional observations from a re-analysis of the deposited data

Results flagged for a closer look

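The 5 libraries of a population are different treatments and are used again for each gene, so no chance rate applies to the following count. Of 28 groups of 5 libraries, 1 per gene and population, 6 held a library far from the other 4. Of these, 5 were in the library labelled untreated CD8 T, with Arg1 at 1459 CPM, Nos2 at 180.5 CPM, Slc7a2 at 153.1 CPM, Acod1 at 96.4 CPM and Ass1 at 74.1 CPM, each above the irradiated CD8 T libraries. The other was Slc7a2 at 100.1 CPM in the untreated CD11c+CD11b- library. The anti-PD-1 effect on Nos2 differed between CD11c+CD11b- and CD11c+CD11b+ cells by -1.21 on the log2 scale, by edgeR's interaction test.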

How the results depend on the processing

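Each combination of population and treatment had 1 library, and the fits other than CD8 T against myeloid cells had 1 to 4 residual degrees of freedom. Of 1332 recomputed log2 fold changes, 1176 kept their direction and side of the threshold, 53 lost a call and 45 gained one. Another 58 changed direction without a call in either fit, and 0 changed direction with a call in either. Without the replicate block (the pool term), 5 genes were called in CD11c+CD11b- against CD11c+CD11b+ cells, 3 in CD11c+CD11b- against CD11c-CD11b+ cells, 0 in CD11c+CD11b+ against CD11c-CD11b+ cells and 3 in CD8 T against myeloid cells. Leaving out 1 pool gave 6, 5 and 3 genes in the first 3 and 1 to 6 in the last. For irradiation it gave 0 to 1 in CD11c+CD11b+, 0 to 3 in CD11c+CD11b-, 0 to 4 in CD11c-CD11b+ and 5 to 6 in CD8 T cells, with the nonzero myeloid counts without RT with anti-SIRPa. It gave 0 to 1 and 0 to 2 for the irradiation differences of CD11c-CD11b+ and CD11c+CD11b- from CD11c+CD11b+ cells. For anti-PD-1 it gave 0 to 1 in CD8 T cells and 0 to 0 in each myeloid population, and for anti-SIRPa 0 to 0 in all 4. No such fit was possible for the antibody differences between populations. With no filter on low counts the calls were 2 in CD8 T against myeloid cells, 0 for anti-PD-1 in CD11c+CD11b+ and in CD11c+CD11b- cells, and 0 for their difference. DESeq2 gave for irradiation 1 in CD11c+CD11b+, 3 in CD11c+CD11b- and 4 in CD11c-CD11b+ cells, among 1247, 2746 and 1336 genes in all. There edgeR called 72, 4 and 1 genes in all. DESeq2 also gave 1 for the irradiation difference of CD11c-CD11b+ and of CD11c+CD11b- from CD11c+CD11b+ cells, among 337 and 1082. For anti-PD-1 it gave 1 and 2 in CD8 T and CD11c-CD11b+ cells, among 854 and 533. For the anti-PD-1 difference of CD11c+CD11b- from CD11c+CD11b+ cells it gave 2, among 96. For anti-SIRPa it gave 1 in CD11c+CD11b- and in CD11c-CD11b+ cells, among 276 and 13. With both antibodies as terms, irradiation gave 1 and 3 in CD11c+CD11b+ and CD11c+CD11b- cells. All 20 libraries in 1 fit gave 2 for irradiation in CD11c+CD11b- and in CD11c-CD11b+ cells, and, with anti-PD-1, 1 in CD11c+CD11b+, 0 in CD11c+CD11b- and 2 in CD11c-CD11b+ cells. Dropping the other antibody gave 0 for anti-PD-1 in CD11c+CD11b+ and in CD11c+CD11b- cells. A filter at a mean of 1 CPM, chosen after seeing the data, gave 1 for each irradiation difference. For the changed fits other than DESeq2 the share of all genes called is not given here. All these counts show only how the calls depend on the fit and are not results about the genes. The causes were not tested. By exon-union length 9 of 28 mean TPM values moved by more than 1 SD, and by Spearman's rank the 5 most similar genes changed for all 6 genes.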
